A study of Bos taurus with 6 samples.

Results

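Milk fat synthesis and fatty acid uptake were followed through 9 bovine genes, chosen by function: ACACA and FASN for building fatty acids, SCD for desaturating them, LPL, CD36 and FABP3 for taking them up and carrying them, DGAT1 for storing them, and SREBF1 and PPARG as transcription factors of the pathway. Of these 9 genes, 8 had a row among the 28522 gene rows of the tables, and 7 had enough counts to be tested among 13949 genes. The ID listed for SCD (ENSBTAG00000045728), the enzyme that puts a double bond into saturated fatty acids, matched none of the rows used here, so SCD was not analysed here. LPL was left out of the test by its low counts. Symbols are those paired with the Ensembl gene IDs in the gene list used, and were not checked against a table of names.

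The samples were cultured bovine mammary epithelial cells, called MAC-T in the growth protocol, a line of immortalised mammary cells. In one group, 3 samples had received 50 nM of a negative control (NC) mimic, and in the other, 3 had received 50 nM of a miR-199a-3p mimic, a synthetic duplex that takes the place of this microRNA. All 6 were collected 48 h later for mRNA sequencing, and the labels name no genotype, hormone or other agent that differs between the groups. The level the mimic reached in the cells was not analysed here. The protocol names medium with fetal bovine serum and no lactogenic hormone, so the cells were not described as lactating. The labels describe a triplicate and do not state whether it came from separate cultures, so the spread behind each p-value is that of these samples and may be technical.

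The libraries held 16303257 to 23720655 counts. NC replicate 2 stood apart from its group: the chi-square per degree of freedom over genes was 35.7 and 28.6 for its pairs with NC replicates 1 and 3, against 7.98 for those 2 with each other and 2.61 to 4.05 for the mimic pairs. Each result below is therefore given with and without that library where it matters. Levels are given in CPM, counts scaled to a common library total over the genes tested (counts per 1000000), with the TMM factor applied. CPM is not divided by transcript length, so levels are compared between samples of a gene and not between genes.

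In the lactating udder, milk triglyceride draws on fatty acids from more than one source. The epithelial cell builds short and medium chains itself, by carboxylation of acetyl-CoA (acetyl-CoA carboxylase, ACACA) and chain growth on fatty acid synthase (FASN), and it imports longer chains that lipoprotein lipase (LPL) frees from blood lipoproteins. Imported chains cross the membrane with the help of CD36 and are bound in the cytosol by FABP3, and DGAT1 adds the last acyl chain to diacylglycerol. SREBF1 encodes the membrane-bound precursor of a transcription factor that turns on ACACA, FASN and SCD, and PPARG encodes a fatty acid-sensing nuclear receptor.

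With the miR-199a-3p mimic, none of the 7 milk fat genes tested passed the threshold, an adjusted p under 0.05 in the quasi-likelihood test of edgeR with Benjamini-Hochberg adjustment over all genes. In the same test 11.8% of all genes tested changed. At an unadjusted p under 0.05, 1 of the 7 passed (CD36), against 27.6% of all genes tested. That count was 3 without NC replicate 2 or with the replicate block, 2 without NC replicate 1, and 2 with library size only, no filter or sample quality weights. The share of all genes at that p was not computed for these settings. Nothing particular to the milk fat genes is therefore read from these counts. DESeq2, limma-voom and limma-voom with sample quality weights also called 0 of the 7. In such bulk samples, fewer cells that express a gene and less of its RNA per cell cannot be told apart. CD36 had the largest estimated difference, at 0.528 times the NC level. FABP3 was estimated at 0.819 times, and the other 5 lay between 0.942 times (DGAT1) and 1.19 times (FASN).

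**Figure D1:**
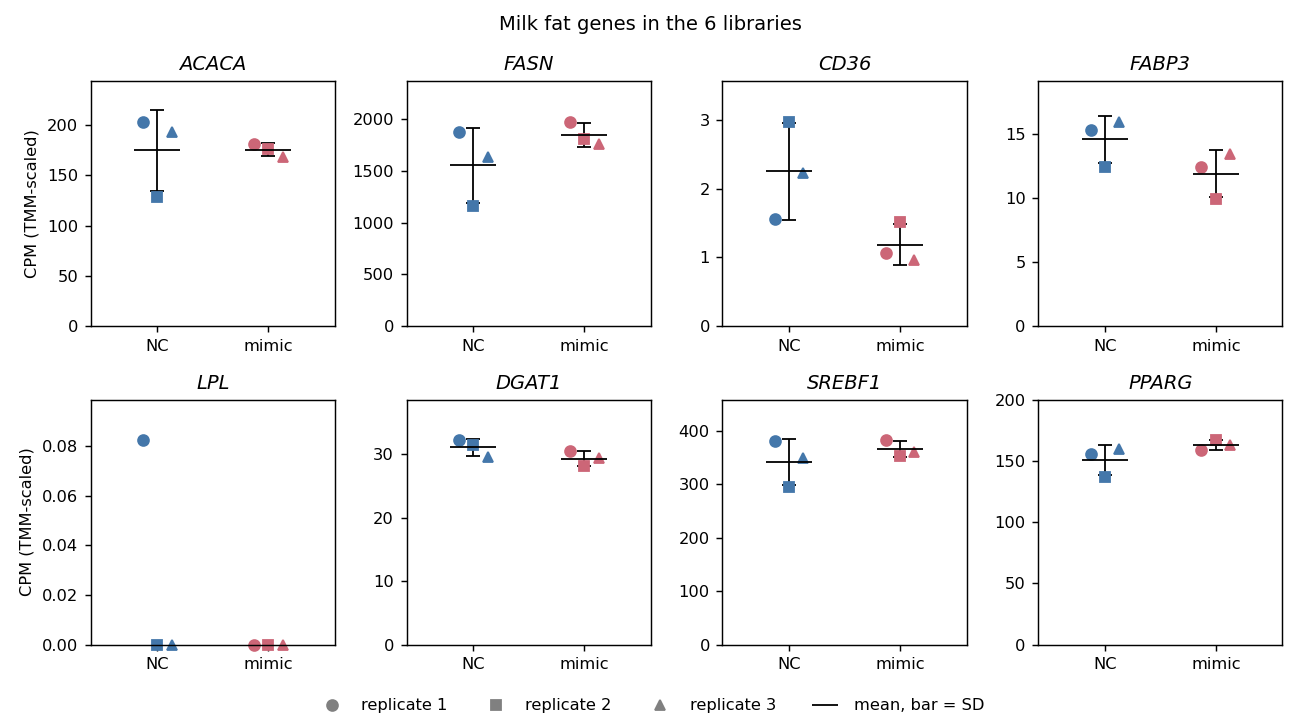
Level of each of the 8 milk fat genes with a row (vertical axes, TMM-scaled CPM, each starting at 0) in the NC (blue) and mimic (red) libraries, with a symbol per replicate and the mean and SD of 3 libraries (not drawn for LPL). Only in the CD36 panel do the groups not overlap; in the ACACA, FASN, SREBF1 and PPARG panels NC replicate 2 (square) is the lowest of the 6 libraries.

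Among the synthesis genes, FASN (ENSBTAG00000015980), the multi-domain enzyme that assembles palmitate, took 0.118% to 0.193% of a library's counts. Its NC libraries held 1875, 1164 and 1633 CPM for replicates 1, 2 and 3, and its mimic libraries held 1977, 1807 and 1760 CPM. The mimic libraries were alike, and NC replicate 1 lay among them, so the groups overlapped. The means were 1557 ± 361 CPM in NC and 1848 ± 114 CPM in mimic libraries (SD, n = 3). The log2 fold change of 0.25 had a standard error of 0.14 and an edgeR adjusted p of 0.303, and its 95% interval ran from 0.946-fold to 1.49-fold. Without NC replicate 2 the estimate was 1.05-fold (edgeR adjusted p = 0.403).

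ACACA (ENSBTAG00000017567), the carboxylase that commits acetyl-CoA to fatty acid synthesis, had nearly equal group means. The NC libraries held 203, 129 and 193 CPM for replicates 1, 2 and 3, and the mimic libraries held 181, 176 and 169 CPM. The mimic libraries thus lay between the low NC replicate 2 and the higher NC replicates 1 and 3. The means were 175 ± 40.2 CPM in NC and 175 ± 6.42 CPM in mimic libraries (SD, n = 3), and a log2 fold change of 0.0042 was estimated (standard error 0.15, edgeR adjusted p = 0.990). The 95% interval ran from 0.798-fold to 1.26-fold. Without NC replicate 2, ACACA was called lower in the mimic libraries, at a log2 fold change of -0.18 (standard error 0.052, 0.882-fold, edgeR adjusted p = 0.0132). The sign of so small a change turned with the scaling too, as the log2 fold change was -0.050 when only the library size was used.

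Of the uptake and transport genes, CD36 and FABP3 could be tested and LPL could not. CD36 (ENSBTAG00000017866), a membrane receptor that helps long-chain fatty acids into cells, had few counts. Its NC libraries held 38, 67 and 37 counts, or 1.56, 2.98 and 2.23 CPM, and its mimic libraries held 19, 29 and 18 counts, or 1.07, 1.52 and 0.964 CPM. All 3 mimic libraries lay below all 3 NC libraries, though mimic replicate 2 was close to NC replicate 1. The exact Poisson 95% intervals of those neighbours, which cover counting error only, were 1.02 to 2.18 and 1.11 to 2.15 CPM, and overlapped. Groups without overlap were seen for 34.2% of all genes tested (15.9% lower with the mimic), and for 1 of the 7 milk fat genes.

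The CD36 means were 2.26 ± 0.706 CPM in NC and 1.18 ± 0.296 CPM in mimic libraries (SD, n = 3). A log2 fold change of -0.92 was estimated, with a standard error of 0.31 and a 95% interval of 0.327-fold to 0.855-fold. The unadjusted edgeR p was 0.0149 and the adjusted p 0.0877, so the difference did not pass the threshold. Without NC replicate 1, the lowest NC library for CD36, it passed narrowly (log2 fold change -1.14, edgeR adjusted p = 0.0477), and without NC replicate 2, the highest, it did not (-0.65, edgeR adjusted p = 0.136). The spread of CD36 within groups, a coefficient of variation of 31.3% in NC and 24.99% in mimic libraries, compares with 14.96% and 21.7% expected from counting error alone.

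FABP3 (ENSBTAG00000016819), a small cytosolic protein that binds long-chain fatty acids, showed a smaller estimated difference than CD36. Its NC libraries held 15.3, 12.4 and 15.9 CPM for replicates 1, 2 and 3, and its mimic libraries held 12.4, 9.91 and 13.4 CPM. Mimic replicate 2 was the lowest of all 6 libraries, and NC replicate 2 lay within the range of the mimic group. The means were 14.6 ± 1.87 and 11.9 ± 1.80 CPM (SD, n = 3), with a log2 fold change of -0.29, a standard error of 0.14 and an edgeR adjusted p of 0.229. Its 95% interval ran from 0.654-fold to 1.02-fold. Without NC replicate 2 the log2 fold change became -0.40 (standard error 0.12, 0.759-fold), and FABP3 was called lower in the mimic libraries (edgeR adjusted p = 0.0187).

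LPL (ENSBTAG00000012855), the secreted lipase that releases fatty acids from lipoproteins, was at the limit of detection. It had 2 counts in NC replicate 1 and 0 in each of the other 5 libraries. A count of 0 was taken to allow up to 3 counts, or 0.133 to 0.181 CPM in those 5 libraries. The upper bound of the exact Poisson interval used for CD36, which is two-sided, was higher, at 0.164 to 0.223 CPM. Both cover counting error only. No fold change is given, and a difference between the groups was not detectable at this depth.

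The esterification gene DGAT1 (ENSBTAG00000026356), whose product completes triglyceride, had the smallest spread of the 7 among the 3 NC libraries. These held 32.2, 31.4 and 29.6 CPM for replicates 1, 2 and 3, and the mimic libraries held 30.4, 28.1 and 29.4 CPM. The groups overlapped narrowly, as mimic replicate 1 lay above NC replicate 3. With counts divided by the library total alone they did not overlap, the lowest NC library being at 30.1 CPM and the highest mimic library at 29.7 CPM. That scaling also moved the median log2 fold change of all genes tested to -0.058. The share of all genes without overlap was not computed for it, so no separation particular to DGAT1 is read from this. The means were 31.1 ± 1.33 and 29.3 ± 1.18 CPM (SD, n = 3), and the log2 fold change, -0.086, had a standard error of 0.075 and an edgeR adjusted p of 0.492. The 95% interval ran from 0.838-fold to 1.06-fold, and without NC replicate 2 the estimate was -0.087. The coefficient of variation of DGAT1, 4.27% in NC and 4.03% in mimic libraries, was close to the 3.95% and 4.30% expected from counting error alone. Without NC replicate 2 its NC value was 5.88%, above those of PPARG (1.72%), FABP3 (2.83%) and ACACA (3.69%). In mimic libraries PPARG (2.35%) and ACACA (3.66%) were less spread than DGAT1.

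**Figure D2:**
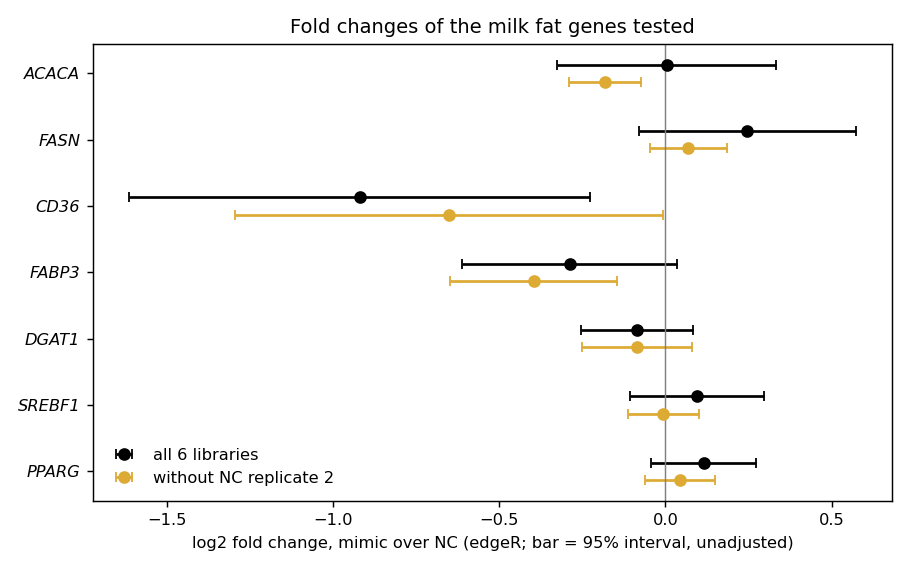
Log2 fold change of mimic over NC for the 7 milk fat genes tested (horizontal axis; points are edgeR estimates and bars unadjusted 95% intervals), with all 6 libraries (black) and without NC replicate 2 (yellow). With all libraries only the interval of CD36 leaves out 0; without NC replicate 2 the intervals of ACACA and FABP3 do too, and those of ACACA and FASN are narrower.

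Of the regulators, SREBF1 (ENSBTAG00000007884) was measured at 382, 295 and 349 CPM in NC replicates 1, 2 and 3 and at 383, 354 and 361 CPM in mimic replicates 1, 2 and 3. NC replicate 2 was the lowest library and the other 5 lay close together, with the groups overlapping. The means were 342 ± 43.9 and 366 ± 15.1 CPM (SD, n = 3), a log2 fold change of 0.096 (standard error 0.089, edgeR adjusted p = 0.523). The 95% interval ran from 0.929-fold to 1.23-fold. The estimate was -0.0071 without NC replicate 2 (edgeR adjusted p = 0.943), so even its sign rested on that library.

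PPARG (ENSBTAG00000015333) held 156, 137 and 160 CPM in NC replicates 1, 2 and 3 and 160, 167 and 163 CPM in mimic replicates 1, 2 and 3. The groups overlapped only at their edge, between NC replicate 3 and mimic replicate 1. The means were 151 ± 12.3 and 163 ± 3.84 CPM (SD, n = 3), with a log2 fold change of 0.12, a standard error of 0.070 and an edgeR adjusted p of 0.319. Its 95% interval, from 0.971-fold to 1.21-fold, was the narrowest of the 7 on the log2 scale. Without NC replicate 2, the lowest library for PPARG, the log2 fold change was 0.044 (1.03-fold, edgeR adjusted p = 0.583). Neither factor is active as RNA alone: the SREBF1 product must be cleaved and the PPARG product bound by ligand, and neither step was measured.

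As a group, 4 of the 7 genes had estimates above 0 and 3 below, and 50.9% of all genes tested had estimates below 0. The median log2 fold change was 0.0042 for the 7 and -0.0043 for all genes tested, of which the middle 50% lay between -0.16 and 0.17. With all libraries, CD36, FABP3 and FASN lay outside that middle range. The balance of signs depended on NC replicate 2 and, through ACACA, on the scaling, filter and tool as well. Without NC replicate 2 the log2 fold changes of ACACA (-0.18) and SREBF1 (-0.0071) also fell below 0. FASN (0.069) and PPARG (0.044) stayed above 0 with smaller estimates, and the median of all genes tested was -0.0011. CD36 had at most 67 counts in a library, while FASN had at least 26208 counts in every library and a coefficient of variation of 23.2% in the NC group.

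**Figure D3:**
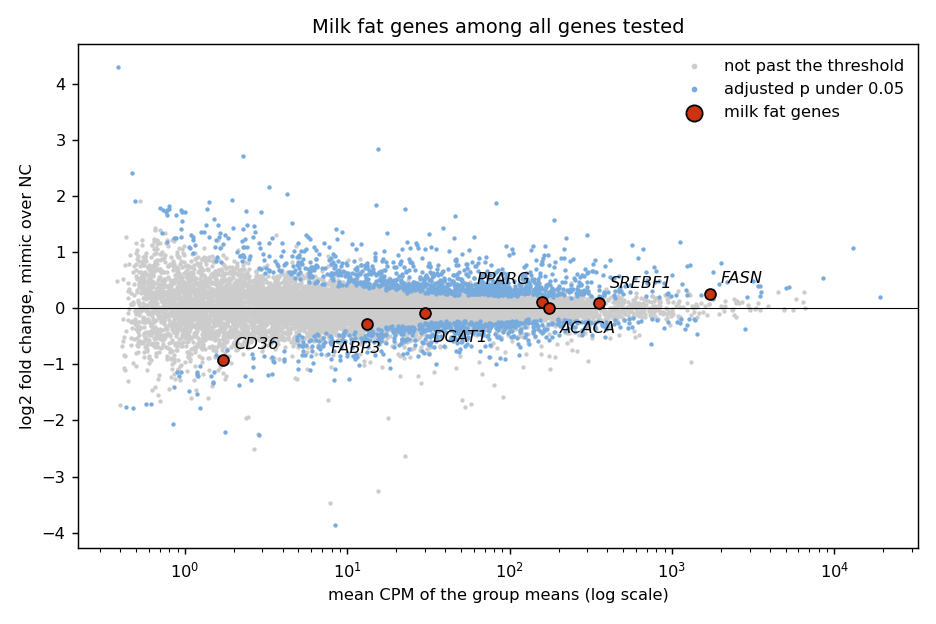
Log2 fold change of mimic over NC (vertical axis) against the mean CPM of the group means (horizontal log axis) for the 13949 genes tested, with genes past an adjusted p of 0.05 in blue and the 7 milk fat genes in red. ACACA, DGAT1, PPARG and SREBF1 lie close to 0, and CD36, at the lowest CPM of the 7, lies lowest.

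Leaving out NC replicate 2 changed the count of milk fat genes called from 0 to 2 of 7, both lower with the mimic (ACACA and FABP3). The share of all genes called was then 24.5%, and 11.3% were called lower. With 7 genes, nothing particular to the milk fat genes is read from this count. Without that library the groups did not overlap for ACACA, CD36 and FABP3, and for 49.3% of all genes tested.

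The synthesis genes differed more within the NC group than between the group means. In NC replicate 2, ACACA was 34.9% and FASN 33.5% below the mean of the other NC libraries (geometric means of CPM). This placed them with the lowest 2.80% and 3.28% of all genes tested by that measure. FABP3 was 20.3%, SREBF1 19.2% and PPARG 13.3% below, which 11.6%, 12.6% and 20.3% of all genes tested matched or exceeded on that side. DGAT1 was 1.94% above, and CD36 was 56.0% above, with the highest 5.25% of genes. Of the low values in NC replicate 2, those of ACACA and FASN lay furthest out among all genes tested. Those of FABP3, SREBF1 and PPARG were less unusual, and CD36, grouped with FABP3 above, went the other way. These are single-library values with no test, and their relation to the overall position of NC replicate 2 was not tested.

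With all libraries, 6 of the 7 genes were less spread in the mimic than in the NC group, as were 70.0% of all genes tested. That share of all genes was 49.9% without NC replicate 2. The coefficient of variation was 3.66% for ACACA, 6.17% for FASN and 4.13% for SREBF1 in mimic libraries, against 23.0%, 23.2% and 12.8% in NC. For PPARG it was 2.35% against 8.15%. The median over all genes tested was 5.998% in mimic and 10.2% in NC libraries. Without NC replicate 2 the NC values, now from 2 libraries, were 3.69% for ACACA, 9.77% for FASN, 6.36% for SREBF1 and 1.72% for PPARG, with a median of 6.13% over all genes tested. The difference between the groups therefore rested on NC replicate 2 for ACACA, and its direction turned for PPARG. It also turned, narrowly, for CD36, at 24.93% in NC without that library against 24.99% in mimic libraries. FABP3 was more spread in mimic libraries, at 15.1% against 12.8% in NC, with mimic replicate 2 23.0% below the others of its group. Since edgeR fits 1 dispersion for a gene across all libraries, the standard errors of ACACA, FASN and SREBF1 carry the spread of the NC group.

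**Figure D4:**
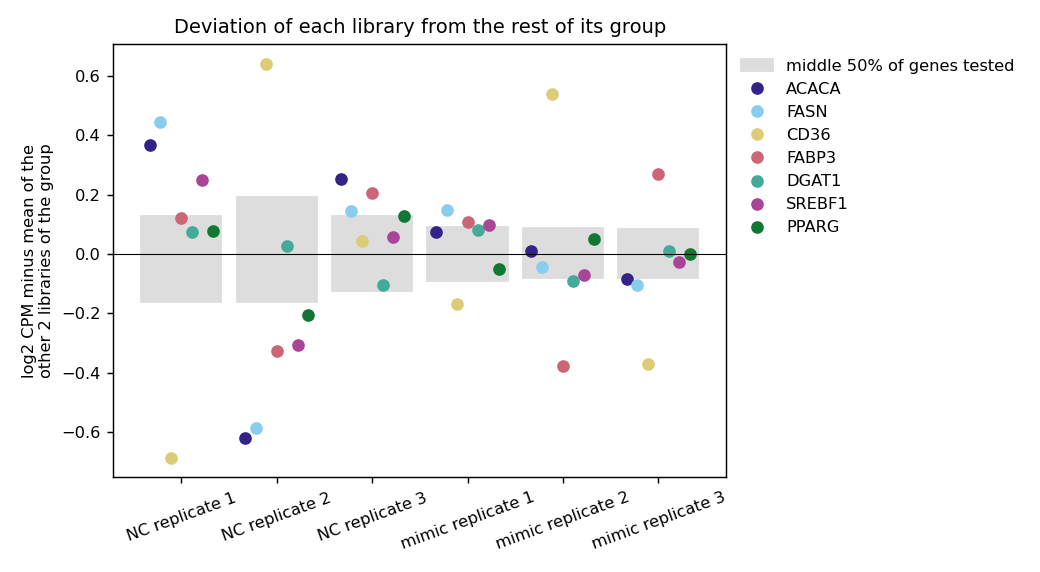
Log2 CPM of each of the 7 milk fat genes in a library minus the mean of the other 2 libraries of its group (vertical axis), by library, with grey boxes for the middle 50% of all genes tested. ACACA, FASN, SREBF1, FABP3 and PPARG are below the box in NC replicate 2 and CD36 is above it, while in mimic replicates 1 to 3 the points of ACACA, FASN, SREBF1 and PPARG lie within 0.15 of 0.

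Ratios of genes within a library do not depend on its scaling. The ACACA to FASN ratio of counts was 0.108, 0.111 and 0.118 in NC replicates 1, 2 and 3 and 0.0917, 0.0975 and 0.0958 in mimic replicates 1, 2 and 3. It was lower in every mimic library, at 0.0950 ± 0.0030 against 0.112 ± 0.0051 (SD, n = 3), or 0.846 times the NC ratio. NC replicate 2, low for both genes, was not apart in this ratio. The FASN to FABP3 ratio was 93.6 to 122 in NC and 131 to 182 in mimic libraries. Of the 21 pairs of the 7 genes, 7 had ratios that did not overlap between the groups, against 32.7% of all pairs of genes tested with a count in every library. The share is near that background. The ratios are a description with no test, and the pairs named were picked after their values were seen.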

How the data were processed

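The deposited files hold raw counts of reads per gene ID, 1 per sample, per the file headers and values. HISAT2, DESeq2 and the build UMD3.1 are named in the submitters' processing notes, without roles or versions. Not given in the sources used here are the counting tool, annotation release and strand setting, so reads of overlapping or antisense genes could not be told apart. Groups and replicate numbers came from the sample titles.

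The genes named are the 9 listed. They, the tests and the alternatives were chosen with earlier results of these data known. A reference table of 37063 bovine genes held all 9 symbols but 0 Ensembl IDs, so further pathway genes, cell type markers, coordinates and sequences were not analysed here, and the labelled cell type was not checked.

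Counts were tested with edgeR 4.0.16 in R 4.3.3 (quasi-likelihood F test, two-sided, TMM, no covariate). The default filter was used (minimum count 10, minimum total 15), and p-values were adjusted over all 13949 genes. For edgeR, each standard error was the size of the log2 fold change divided by the square root of its F value. Intervals are unadjusted, from the estimate and that standard error, and so restate the F test. Alternatives used limma 3.58.1 and DESeq2 1.42.0. The procedure was tested on simulated data that held no outlying library, so that test does not bear on the effect of NC replicate 2. Deviations from the mean of the other libraries used log2 CPM with a prior count of 2. TMM factors were 0.978 to 1.02, and 1 count was worth 0.0412 to 0.0604 CPM. Plots were drawn with matplotlib 3.10.9.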

Additional observations from a re-analysis of the deposited data

How the results depend on the processing

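The number of milk fat genes called was 0 under the other scalings, filters and tools and with the replicate block. It was 0 to 2 with 1 library left out: 1 without NC replicate 1 (CD36, log2 fold change -1.14) and 2 without NC replicate 2 (FABP3, -0.40; ACACA, -0.18), all lower with the mimic. The cause was not tested. In those fits 1257 of all 14157 genes tested were called without NC replicate 1, 486 of them lower. Without NC replicate 2 it was 3460 of 14126, 1599 of them lower. Estimates of FASN, CD36, FABP3, DGAT1 and PPARG kept their sign in all 15 alternatives. That of ACACA (0.0042) turned to -0.0029 with RLE, -0.050 with library size only, -0.013 without a filter, -0.0030 with DESeq2 and -0.11 with limma-voom and quality weights. With 1 library left out ACACA ranged from -0.18 to 0.13, SREBF1 from -0.0071 to 0.18, CD36 from -1.14 to -0.65 and FABP3 from -0.40 to -0.17.

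Over all genes, 1643 were called (1029 higher, 614 lower). With quality weights 2683 were called, 1160 of them lower, and with library size only 1010 were lower, which left 43.2% of the calls higher against 62.6%. Library size only moved the median of all genes tested from -0.0043 to -0.058. With 1 library left out the calls ranged from 472 to 3460 (351 to 1861 higher, 121 to 1599 lower), with 951 when NC replicate 3 was left out and 472, 510 and 520 when mimic replicate 1, 2 or 3 was. The replicate block gave 1411. Deviations of same-numbered libraries correlated at 0.0031 to 0.054. NC replicates 1 and 2 correlated best with the mimic replicate of the same number, and NC replicate 3 with mimic replicate 2 (0.038). With so few libraries these values cannot settle whether samples were paired, and they were not treated as paired.

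LPL, with 2 counts in NC replicate 1 and 0 in the other libraries, did not pass the filter of the reported fit. Whether more depth would have changed this was not tested. CD36 rested on 18 to 67 counts a library, and the parts of counting error and of spread between libraries in its wide interval were not separated.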
